A study of Drosophila melanogaster with 12 samples.

Results

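The 32 genes described here encode the presynaptic machinery of the fruit fly (Drosophila melanogaster): the proteins that fuse synaptic vesicles with the membrane, build the active zone, retrieve the vesicles and fill them with transmitter. They were taken by FlyBase symbol from a table of RNA sequencing counts, in which 32 of 32 symbols were found among 17895 FlyBase gene rows. One of them, Syd-1, is listed under its current symbol RhoGAP100F and was matched by synonym. All 32 passed the filter on low counts. RNA came from single heads of 21-day-old females fed for those 21 days from eclosion, with 3 libraries in each of 4 groups. The groups were flies labelled SIRT6 KO fed 100 µM 680C91, flies labelled SIRT6 KO fed the solvent dimethyl sulfoxide (DMSO), w1118 flies fed 100 µM 680C91, and w1118 flies fed DMSO. 680C91 inhibits TDO2, the enzyme that opens the tryptophan breakdown pathway, and is called the inhibitor here; w1118 is a white-eyed laboratory strain. How the KO allele was made, and whether the KO line shares the w1118 background, is not given in the sources used here, so the allele and the line's background cannot be told apart.

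At a chemical synapse, an action potential opens calcium channels that scaffold proteins hold at the active zone. Calcium binds synaptotagmin on docked vesicles, and the SNARE proteins of vesicle and plasma membrane, helped by priming factors, drive fusion and release of transmitter. The vesicle membrane is then retrieved by clathrin and dynamin, and the new vesicle is refilled by transporters that are specific to each transmitter. In the fly brain acetylcholine is the main excitatory transmitter and GABA the main inhibitory one, while motor neurons release glutamate.

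Libraries held 24633705 to 44545859 counts, and no member had fewer than 1014 counts in any library. The targeted gene did not separate the labels: Sirt6 ranged over 1.95 to 2.50 CPM (read counts put on the same depth in every library) where flies were labelled KO and over 1.37 to 2.71 CPM in the 6 w1118 libraries. Its log2 fold change was -0.0099 (SE 0.125, edgeR adjusted p = 0.971). Whether the allele removes the counted exons is not given in the sources used here, so every direction below refers to the labels. In w1118, 2 libraries, both numbered replicate 2, stood apart from the rest. The summed level of 7 fat body markers was 109800 to 161100 CPM in the 6 libraries labelled KO and 230700 to 309300 CPM in 4 w1118 libraries. It was 31560 CPM in replicate 2 of w1118 with inhibitor and 4648 CPM in replicate 2 of w1118 with DMSO. All 7 markers, among them the yolk protein genes, had at least 3 counts in every library. The counts of called members below are therefore given with and without these 2 libraries, and the part of fat body RNA in it was not tested.

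The members covered a wide range of levels. Per kilobase of merged exon, nSyb, which encodes the vesicle SNARE neuronal synaptobrevin, had the highest mean over the 12 libraries at 142.9 CPM per kb. It was followed by the fusion clamp cpx (complexin) at 80.4, the plasma membrane SNARE Snap25 at 79.4 and the glutamate transporter VGlut at 69.6 CPM per kb. The range of nSyb over the libraries, 101.0 to 182.8 CPM per kb, began just above that of cpx, 54.3 to 100.1 CPM per kb. The ranges of cpx, Snap25 and VGlut overlapped. These genes were measured in the same libraries, so overlap of ranges does not show that they did not differ, and their order was not tested. The place of Snap25 rests on 1 library, replicate 2 of w1118 with inhibitor, at 297.5 CPM per kb. Without that library its mean was 59.6 CPM per kb and it ranked 6, below VGlut at 70.8. The lowest means were those of ChAT, the enzyme that makes acetylcholine, at 10.9 CPM per kb and of 3 active zone genes, Liprin-alpha (12.9), Rim (12.9) and Fife (12.99). In the active zone group 6 of 7 genes ranked 25 or lower of 32, and brp ranked 22. In the vesicle fusion group, 4 of 8 members were among the 10 highest. Levels per kb depend on the exons annotated, and long, rarely used exons lower them.

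**Figure D1:**
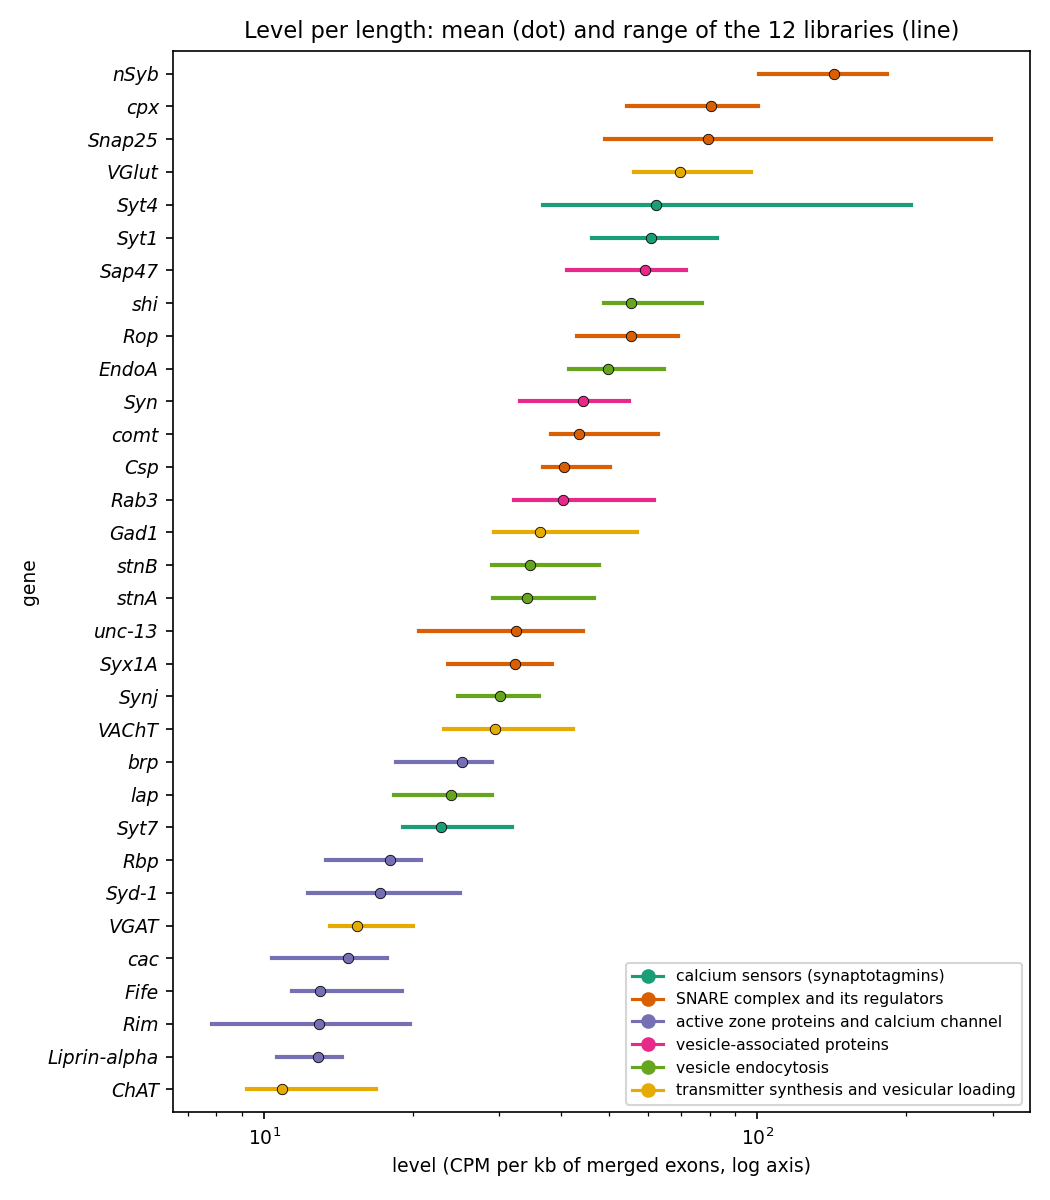
Level of each of the 32 genes in CPM per kb of merged exons on a log axis, with the dot at the mean and the line from the lowest to the highest of the 12 libraries, coloured by role. nSyb stands highest at 142.9 CPM per kb and ChAT lowest at 10.9, and the long lines of Snap25 and Syt4 each come from 1 library.

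Across the 2 genotypes, averaged over both treatments, 2 of the 32 genes rose in libraries labelled KO and none fell. These were Syn, which encodes the vesicle phosphoprotein synapsin, and nSyb. That is 6.25% of the members, beside 11.1% of the 14155 genes tested (5.33% higher and 5.78% lower) by edgeR's quasi-likelihood test at an adjusted p under 0.05. At an unadjusted p under 0.05 there were 7 members (21.9%), beside 26.9% of all genes. The median log2 fold change of the members was 0.12, with 20 of 32 above 0, and that of all genes tested was -0.07. In whole heads, a change in the number of neurons and a change in RNA per neuron cannot be told apart. No member separated all 6 libraries labelled KO from all 6 w1118 libraries, beside 3.79% of all genes that did so with KO higher and 3.97% with KO lower.

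The 2 libraries that stood apart changed this count. Without both of them, 25 of 32 members were called, 24 higher and 1 lower in libraries labelled KO, beside 16.5% of 14303 genes called higher and 12.5% called lower. The members' median was then 0.29, with 29 of 32 above 0, and that of all genes 0.03. Leaving out replicate 2 of w1118 with DMSO alone gave 18 members, all higher, beside 22.4% of genes called in either direction. Leaving out replicate 2 of w1118 with inhibitor alone gave 3 of 32, beside 11.3% of genes. In replicate 2 of w1118 with DMSO, 31 of 32 members lay above their own mean over the 12 libraries, by a median of 0.31 on the log2 scale, and 17 members had their highest level there. In the other 2 w1118 DMSO libraries 3 and 2 of 32 members lay above their mean. Replicate 2 of w1118 with inhibitor had both the highest level of 5 members and the lowest of 10. Leaving out a w1118 library in which 31 of 32 members were high raises KO minus w1118 for most of them by construction. The calls without both replicate 2 libraries, here and in each role group below, are therefore not independent support for a genotype effect.

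**Figure D2:**
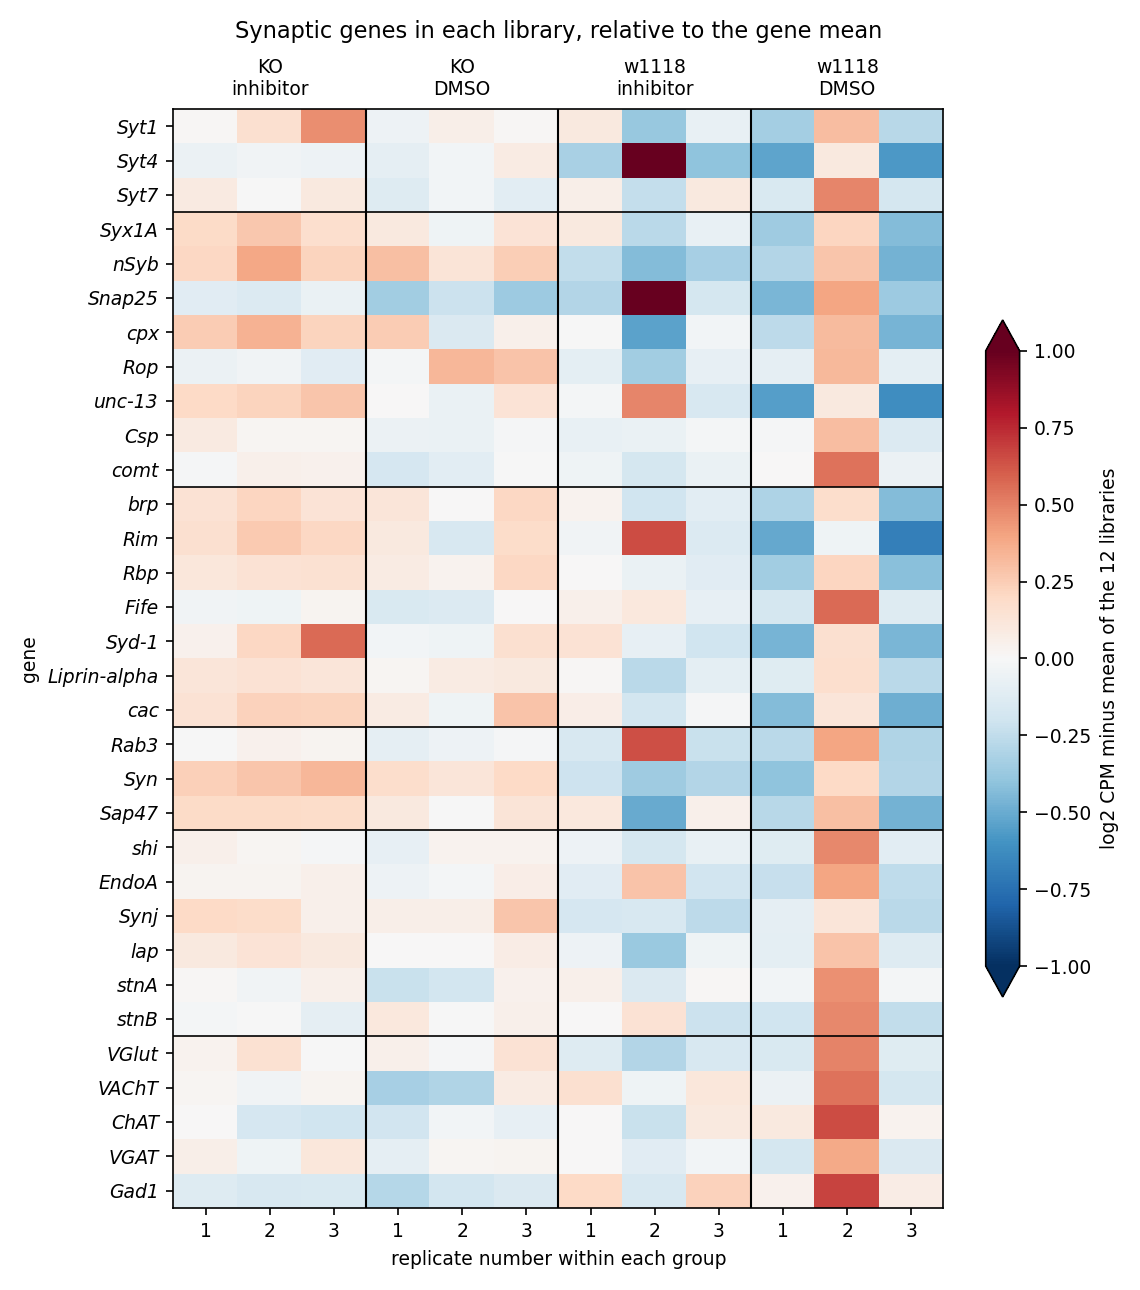
Log2 CPM of each gene (rows, grouped by role) in each library (columns, replicate 1 to 3 in each group), minus the gene's mean over the 12 libraries; the colour scale ends at -1 and 1. Replicate 2 of w1118 with DMSO is above the mean for 31 of 32 genes, and single libraries labelled KO are above it for 11 to 25 genes.

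The 3 synaptotagmins, the calcium sensors, did not pass the test in any comparison with all 12 libraries. Their median log2 fold change in libraries labelled KO was -0.05, with 1 of 3 above 0. Syt1, the sensor for fast synchronous release, ranged over 416.5 to 594.4 CPM in the 6 libraries labelled KO and 331.6 to 534.1 CPM in the 6 w1118 libraries. Syt4 is an isoform known in the fly for signalling from the muscle back to the nerve terminal. It had 163.0, 166.4 and 164.1 CPM with inhibitor and 159.9, 166.7 and 180.5 CPM with DMSO in libraries labelled KO. The w1118 libraries had 136.2, 636.7 and 128.7 CPM with inhibitor and 118.0, 181.9 and 114.1 CPM with DMSO. Replicate 2 with inhibitor thus stood at several times any other library, and Syt4 is singled out here because of that value. Its averaged log2 fold change was -0.29 (SE 0.369, edgeR adjusted p = 0.654). It was 0.50 without both replicate 2 libraries (SE 0.0516, edgeR adjusted p = 0.00034), so the sign turned. Syt4 was picked for its value in 1 of the libraries left out, so this p-value is not an independent test. In the same fit Syt1 was also higher, by 0.34, and Syt7, a high-affinity calcium sensor, was not called at 0.11.

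Of the 8 genes of the SNARE complex and its regulators, nSyb rose in libraries labelled KO and 7 did not pass the test. The group's median was 0.18, with 5 of 8 above 0. nSyb had 658.5, 744.4 and 664.3 CPM with inhibitor and 699.2, 621.7 and 675.6 CPM with DMSO in libraries labelled KO. In w1118 it had 480.2, 420.8 and 452.6 CPM with inhibitor and 464.8, 690.2 and 411.1 CPM with DMSO. One w1118 library, replicate 2 with DMSO, therefore lay within the KO range, and the other 5 lay below every library labelled KO. The averaged level was 39.5% higher in libraries labelled KO (log2 fold change 0.48, SE 0.131, edgeR adjusted p = 0.042). nSyb kept its direction in 20 of 20 alternatives and was called in 8 of them, with adjusted p at 0.00035 to 0.221.

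Syx1A, the syntaxin of the plasma membrane that pairs with nSyb and Snap25, had 151.1, 159.6 and 148.8 CPM with inhibitor and 142.2, 128.7 and 145.7 CPM with DMSO in libraries labelled KO. Its w1118 levels were 141.7, 110.0 and 125.9 CPM with inhibitor and 103.6, 153.9 and 98.2 CPM with DMSO. The groups overlapped with DMSO through the replicate 2 library. The averaged log2 fold change was 0.26 (SE 0.119, edgeR adjusted p = 0.200). Syx1A shares 447 bp of exon with eIF4EHP on the same strand, so reads from that stretch may be split between them.

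Snap25 is singled out, like Syt4, for 1 library. It had 141.8, 140.2 and 146.8 CPM with inhibitor and 121.0, 132.5 and 119.3 CPM with DMSO in libraries labelled KO. The w1118 libraries had 125.5, 678.9 and 135.9 CPM with inhibitor and 112.0, 202.1 and 119.5 CPM with DMSO. Replicate 2 with inhibitor was again several times higher than any other library. The averaged log2 fold change was -0.68 (SE 0.394, edgeR adjusted p = 0.301), and without both replicate 2 libraries it was 0.19 (SE 0.054, edgeR adjusted p = 0.029). As for Syt4, the gene was picked for a library that the second fit leaves out, so its p-value is not an independent test.

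Among the other 5 regulators, none was called with all 12 libraries. The priming factor unc-13 had 682.8 to 867.2 CPM in libraries labelled KO and 465.2 to 1002 CPM in w1118, where the top value was again replicate 2 with inhibitor. cpx had 813.5 to 1143 CPM in libraries labelled KO, while 5 of 6 w1118 libraries had 620.1 to 895.8 CPM, and its averaged log2 fold change was 0.30. Rop, the Sec1/Munc18 partner of syntaxin, was at 0.13, Csp, a vesicle chaperone, at -0.01, and comt, the ATPase that takes spent SNARE complexes apart, at -0.08. In the fit without both replicate 2 libraries 6 of 8 members of this group were called, all higher, beside 16.5% of all genes called higher. Among them unc-13 was at 0.54, cpx at 0.43 and Rop at 0.24, and only Csp and comt were not called. In the annotation, 31.6% of the exon length of unc-13 is overlapped by other features, antisense RNAs and transposons among them, and the strand setting of the counting is not stated.

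None of the 7 active zone genes passed the test with all 12 libraries. Their median was 0.23, with 6 of 7 above 0, the exception being Fife, a Piccolo- and RIM-like scaffold, at -0.13. The calcium channel gene cac had 191.8, 204.1 and 203.0 CPM with inhibitor and 183.7, 168.6 and 211.7 CPM with DMSO in libraries labelled KO. In w1118 it had 182.0, 152.8 and 172.3 CPM with inhibitor and 128.9, 189.1 and 123.9 CPM with DMSO. With DMSO, 2 of 3 w1118 libraries lay below every library labelled KO and 1 lay among them. Its averaged log2 fold change was 0.30 (SE 0.117, edgeR adjusted p = 0.140).

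brp, which encodes Bruchpilot, the scaffold of the T-bar at which calcium channels cluster, also overlapped between genotypes. It had 367.4, 386.5 and 367.0 CPM with inhibitor and 363.1, 334.5 and 385.2 CPM with DMSO in libraries labelled KO. The w1118 heads had 340.6, 289.6 and 309.5 CPM with inhibitor and 268.5, 376.3 and 247.2 CPM with DMSO. The groups were apart with inhibitor and overlapped with DMSO. The averaged log2 fold change was 0.27 (SE 0.112, edgeR adjusted p = 0.161).

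Liprin-alpha, which brings scaffold proteins to the forming active zone, had 86.3, 87.8 and 86.6 CPM with inhibitor and 80.5, 84.2 and 85.3 CPM with DMSO in libraries labelled KO. In w1118 it had 80.1, 66.0 and 74.2 CPM with inhibitor and 73.3, 89.3 and 65.8 CPM with DMSO. Its highest and its lowest library were both w1118 libraries fed DMSO. The averaged log2 fold change was 0.19 (SE 0.0825, edgeR adjusted p = 0.180).

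Of the other 4, Rim, which tethers channels and vesicles, varied most. It had 160.2 to 215.4 CPM in libraries labelled KO and 111.9 to 281.9 CPM in w1118, a 2.52-fold range over the 12 libraries. Rbp (RIM-binding protein) was at a log2 fold change of 0.23 and Syd-1, which starts active zone assembly, at 0.29. Leaving out both replicate 2 libraries, 6 of 7 active zone genes were called, all higher, beside 16.5% of all genes called higher. These were Rim at 0.54, Syd-1 at 0.48, cac at 0.45, brp and Rbp at 0.42 each and Liprin-alpha at 0.29. Fife was at 0.10 and was not called.

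Syn was the member with the lowest adjusted p. It had 299.2, 306.7 and 318.8 CPM with inhibitor and 286.2, 275.5 and 290.4 CPM with DMSO in libraries labelled KO. In w1118 it had 219.5, 197.5 and 206.6 CPM with inhibitor and 191.7, 291.4 and 207.1 CPM with DMSO. As for nSyb, 5 of 6 w1118 libraries lay below every library labelled KO and replicate 2 with DMSO lay among them. The averaged level was 35.3% higher in libraries labelled KO (log2 fold change 0.44, SE 0.105, edgeR adjusted p = 0.026). Syn was above 0 in 20 of 20 alternatives and was called in 16, with adjusted p at 0.00013 to 0.401. Its log2 fold change was 0.60 without both replicate 2 libraries, and that of nSyb was 0.66. Syn lies on chromosome 3R at 10190689 to 10222442 (BDGP6), 32.9 kb from Sirt6 at 10255349 to 10261849, and shares 249 bp of exon with Timp on the opposite strand. The part of linkage to the targeted locus was not tested.

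The other 2 vesicle-associated genes were not called with all 12 libraries. The vesicle GTPase gene Rab3 was at a log2 fold change of -0.07, with its highest level, 232.4 CPM, in replicate 2 of w1118 with inhibitor. Sap47, a synapse-associated protein gene, was at 0.23. All 3 genes of the group were called higher without both replicate 2 libraries, beside 16.5% of all genes, with Rab3 at 0.30 and Sap47 at 0.35.

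Of the 6 endocytosis genes, none was called with all 12 libraries, and their median was 0.01, with 4 of 6 above 0. Synj, the lipid phosphatase synaptojanin that helps strip clathrin from new vesicles, came nearest. It had 163.3, 161.4 and 146.9 CPM with inhibitor and 147.9, 147.8 and 172.1 CPM with DMSO in libraries labelled KO. Its w1118 levels were 126.7, 126.8 and 118.2 CPM with inhibitor and 133.1, 154.6 and 117.8 CPM with DMSO. Again 1 w1118 library, replicate 2 with DMSO, lay within the KO range. The averaged log2 fold change was 0.28 (SE 0.0828, edgeR adjusted p = 0.061).

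The other 5 endocytosis genes were closer to 0. shi (dynamin) had 311.5 to 342.8 CPM in libraries labelled KO and 292.6 to 461.9 CPM in w1118, where 5 of 6 libraries were at or below 318.4 CPM. EndoA (endophilin) was at a log2 fold change of 0.01 and lap, the clathrin adaptor AP180, at 0.12. The stonins stnA and stnB were at -0.12 and -0.01, but they come from 1 dicistronic transcript with identical annotated exons. The counting tool's split between them is uncertain, and the ratio of stnA to stnB ranged over 0.786 to 1.09 in libraries labelled KO and 0.810 to 1.16 in w1118. In the fit without both replicate 2 libraries, 5 of 6 endocytosis genes were called higher, beside 16.5% of all genes. These were Synj at 0.41, EndoA at 0.29, stnB at 0.24, lap at 0.22 and shi at 0.17. The exception was stnA, at 0.02.

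The 5 genes of transmitter synthesis and loading had the lowest median of the 6 role groups, although a difference between role groups was not tested. Their median was -0.19, with 2 of 5 above 0 in the averaged comparison, and none was called with all 12 libraries. Gad1, which makes GABA from glutamate, had 120.1, 117.4 and 118.1 CPM with inhibitor and 107.7, 115.7 and 118.8 CPM with DMSO in libraries labelled KO. The w1118 heads had 150.8, 117.8 and 154.4 CPM with inhibitor and 135.4, 209.8 and 138.1 CPM with DMSO. With DMSO the groups did not overlap, and with inhibitor replicate 2 of w1118 lay among the libraries labelled KO. The averaged log2 fold change was -0.37 (SE 0.121, edgeR adjusted p = 0.078). Gad1 was the 1 member called lower without both replicate 2 libraries, at -0.24 (SE 0.0454, edgeR adjusted p = 0.0055). Its highest w1118 level, 209.8 CPM, is in 1 of the libraries left out, so this p-value is not an independent test.

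The acetylcholine pair, ChAT and the vesicular transporter VAChT, is encoded by 1 nested locus, shares 606 bp of exon and stood at log2 fold changes of -0.23 and -0.19. ChAT had 37.5 to 43.3 CPM in libraries labelled KO and 37.0 to 67.6 CPM in w1118. VAChT had 164.3 to 218.2 CPM in libraries labelled KO and 182.3 to 300.3 CPM in w1118. Neither was called without both replicate 2 libraries, with ChAT at -0.09 and VAChT at -0.02. VGlut, at 0.11, and the GABA transporter VGAT, at 0.02, were not called with all 12 libraries. Both were called higher without both replicate 2 libraries, at 0.28 and 0.18.

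**Figure D3:**
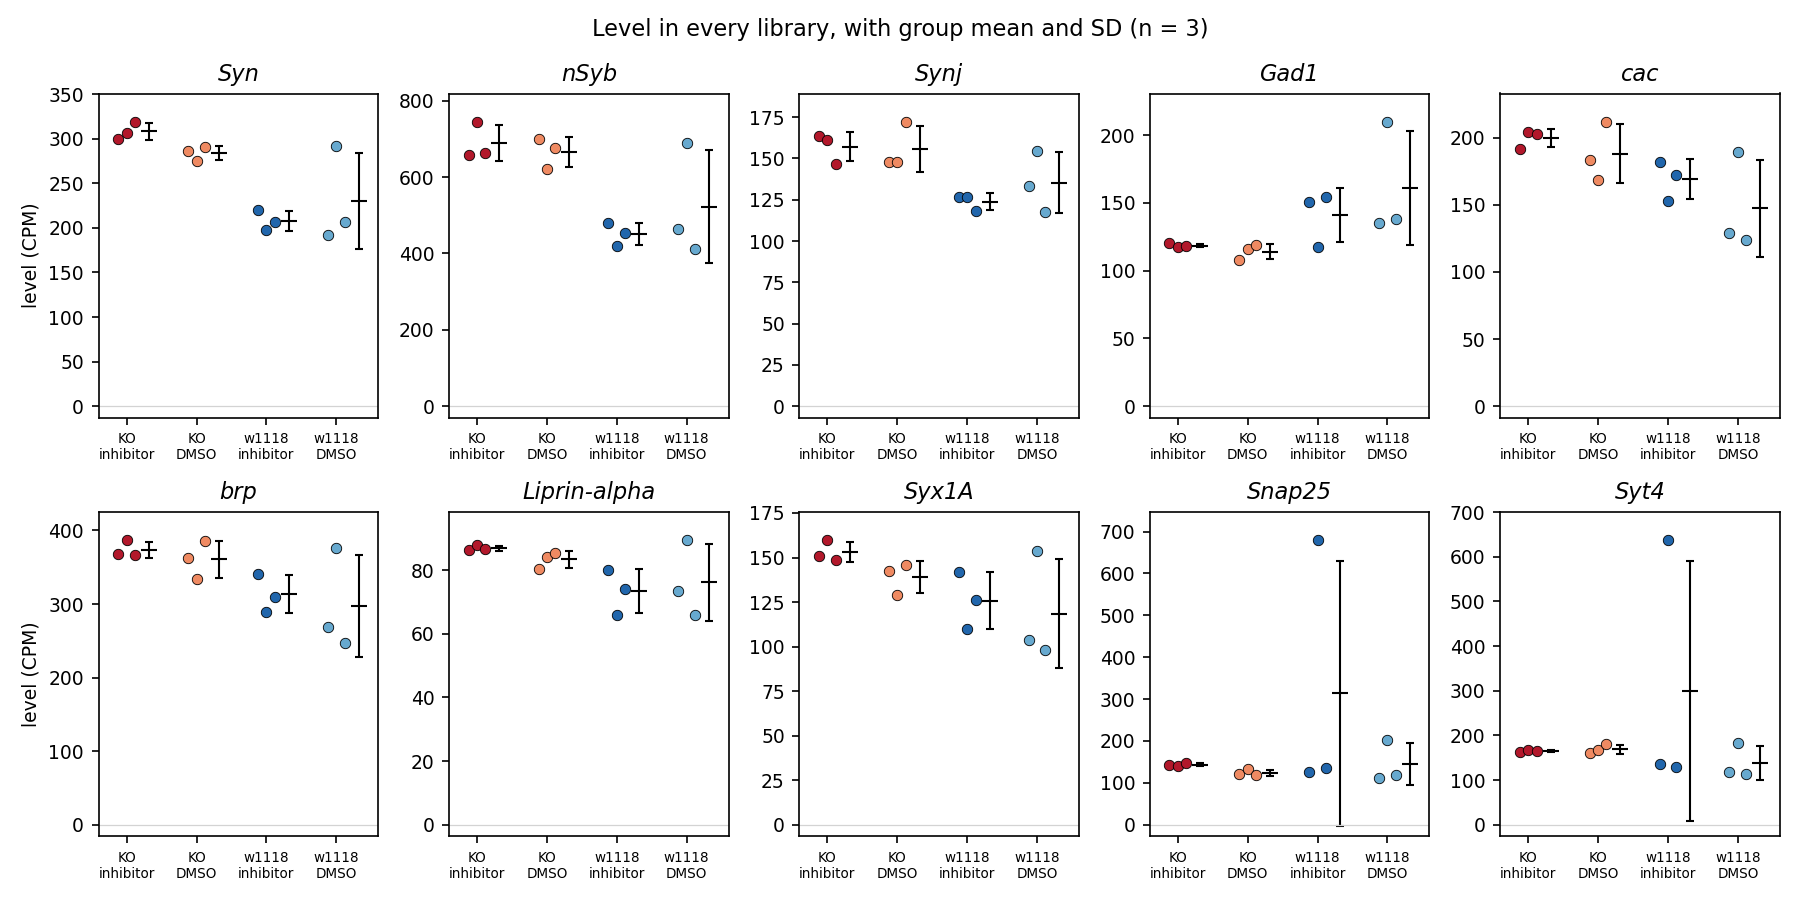
Level in CPM (linear axis) of 10 genes in each library, with the group mean and SD (n = 3) in black beside the points; the lower SD bar of Snap25 in w1118 with inhibitor reaches 0. Syn and nSyb lie higher in libraries labelled KO than in 5 of 6 w1118 libraries, and Snap25 and Syt4 reach 678.9 and 636.7 CPM in 1 w1118 library.

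With DMSO alone, libraries labelled KO against w1118, no member was called, beside 4.10% of all genes. At an unadjusted p under 0.05 there were 2 members (Gad1 and ChAT), or 6.25%, beside 18.4% of all genes, and DESeq2 called 0 members, beside 8.64% of genes. The members' median log2 fold change was 0.04, with 17 of 32 above 0, and that of all genes was -0.07. The groups did not overlap for 2 members, beside 24.1% of all genes in either direction. These were Gad1 and ChAT, lower in all 3 libraries labelled KO, beside 14.0% of all genes that were lower. All 5 transmitter genes were below 0 here, with a median of -0.31. Gad1 was at -0.50 (SE 0.171, edgeR adjusted p = 0.150) and ChAT at -0.38 (SE 0.160, edgeR adjusted p = 0.237). Without both replicate 2 libraries, 20 members were called, all higher, beside 18.3% of genes called in either direction, and the transmitter genes' median was 0.03. The fit then rests on 2 w1118 libraries fed DMSO.

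With inhibitor alone, no member was called either, beside 3.41% of all genes. At an unadjusted p under 0.05 there were 3 members (Syn, nSyb and Synj), or 9.38%, beside 18.6% of all genes. DESeq2 called Syn and nSyb, beside 7.93% of genes. Here 24 of 32 members were above 0, with a median of 0.11, beside -0.06 for all genes. In 15 of 32 members all 3 libraries labelled KO lay above all 3 w1118 libraries, which is 46.9% of the members beside 12.5% of all genes. The same held for 8 of 9 neuron markers, 6 of 11 photoreceptor markers and 22 of 56 other presynaptic genes, all described below. It held for 0 of 9 glia, 0 of 7 fat body, 1 of 8 muscle and 1 of 4 hemocyte markers. These genes were compared in the same libraries, so they are not separate observations. The 15 members include 5 of 8 SNARE and regulator genes and 4 of 7 active zone genes. No member was lower in all 3, beside 15.2% of all genes. Syn was at 0.57 (SE 0.149, edgeR adjusted p = 0.074) and nSyb at 0.61 (SE 0.186, edgeR adjusted p = 0.110). Without both replicate 2 libraries, 8 members were called higher and Gad1 lower, beside 12.8% of genes in either direction.

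The scaling of the libraries sets where 0 lies. With libraries scaled to the geometric mean of 9 neuron markers (elav, fne, onecut, scrt, para, futsch, Appl, nrv3 and CadN), values are relative to other neuronal transcripts. None of these markers is a member. The median of all genes was then -0.44, beside -0.07 with TMM, and that of the members was -0.22. With this shift of all genes, 2 of 32 members, Syn and nSyb, were above 0. No member was called higher and 11 of 32 were called lower, a share close to the 31.9% of all genes called lower. The 11 are therefore named as single results, not as a pattern of roles. They are the transmitter genes Gad1, ChAT, VAChT and VGAT, the endocytosis genes shi, stnA and stnB, and comt, Csp, Syt7 and Fife. Of these, stnA and stnB have identical annotated exons, and ChAT and VAChT share exon sequence. Measured from the median of all genes, the members stood 0.19 higher with the usual scaling and 0.22 higher with this one. A change of scaling shifts all genes by nearly the same amount, so these values had to be close and are not separate evidence.

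**Figure D4:**
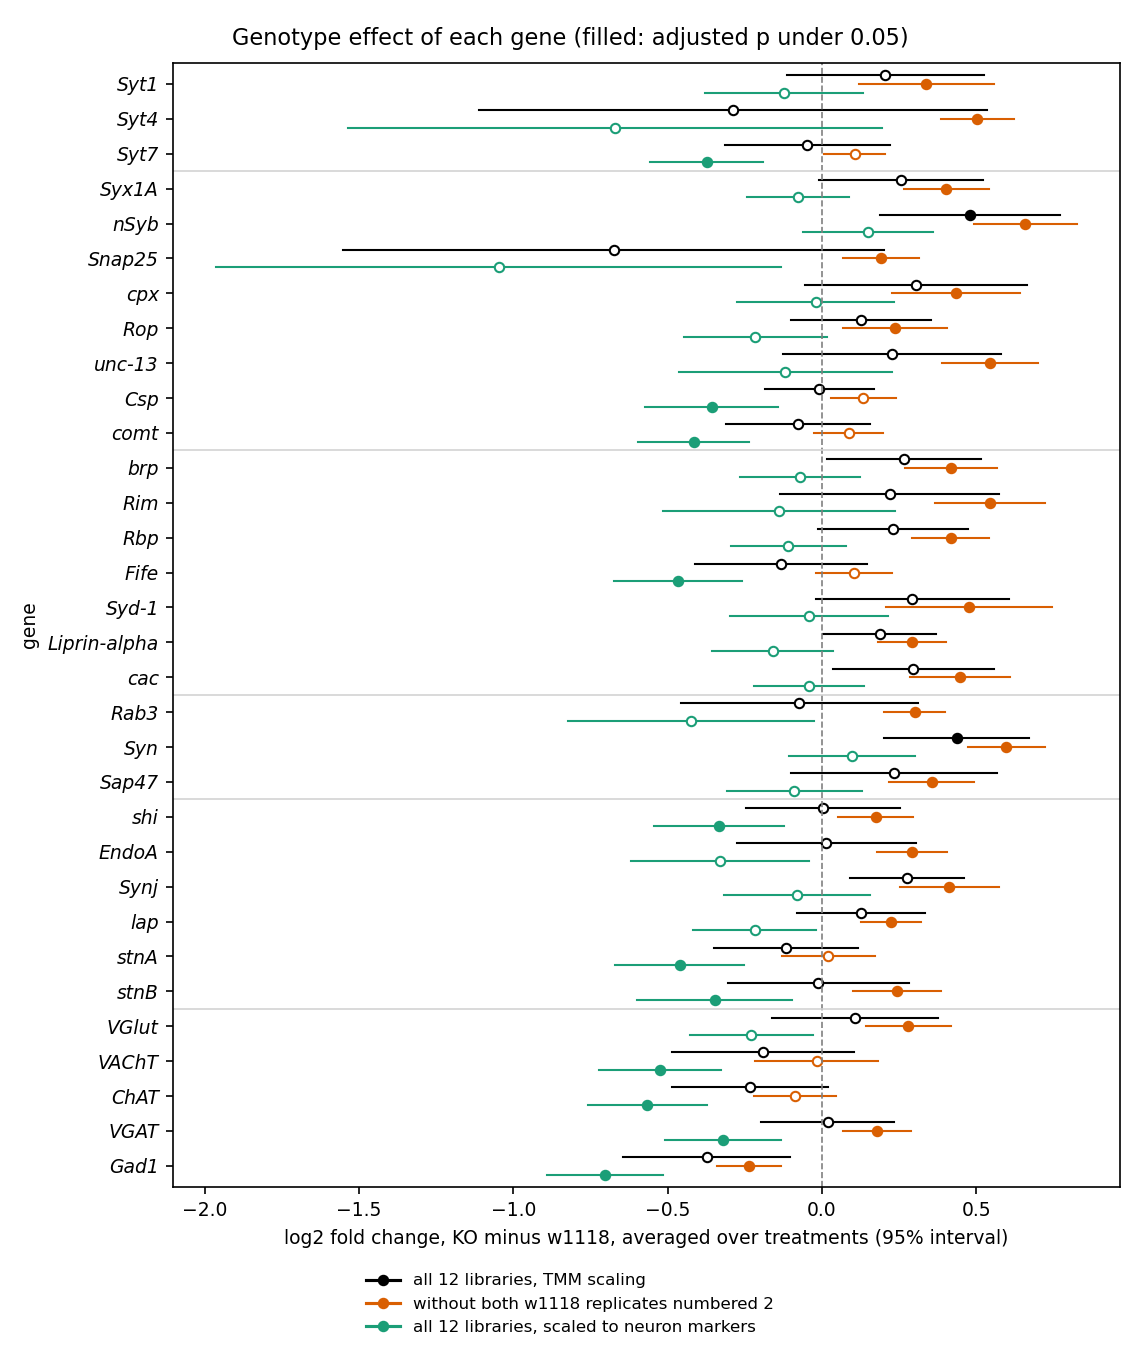
Log2 fold change of libraries labelled KO minus w1118, averaged over treatments, with 95% interval, for each gene (rows, grouped by role) under 3 settings; filled dots have an adjusted p under 0.05. With all 12 libraries 2 genes are filled, without both w1118 replicates numbered 2 there are 25, and scaled to neuron markers 11 are filled on the lower side. With that last scaling 31.9% of all genes were called lower.

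Of the 9 neuron markers, 1 was called in the averaged comparison (Appl, higher, 0.74), which is 11.1%, the share over all genes. All 9 were above 0, with a median of 0.34. Their summed level was 3332 to 3921 CPM in libraries labelled KO and 2241 to 3811 CPM in w1118, with 3811 CPM in replicate 2 with DMSO. The summed level of the 32 members was 7658 to 8748 CPM in libraries labelled KO and 6214 to 9711 CPM in w1118. The w1118 values were 7654, 8265 and 7245 CPM with inhibitor and 6500, 9711 and 6214 CPM with DMSO. The ratio of the 2 sums was 2.22 to 2.36 in libraries labelled KO and 2.50 to 3.21 in w1118. The ratio of geometric means was 0.595 to 0.677 in libraries labelled KO and 0.682 to 0.860 in w1118, so there the groups nearly met. Replicate 2 of w1118 with inhibitor was the highest in both. The members were thus lower relative to neuron markers in all 6 libraries labelled KO. This is not particular to the members, since with neuron marker scaling the median was -0.44 for all genes and -0.22 for the members. Of the 9 neuron markers, 8 were called higher without both replicate 2 libraries, beside 16.5% of all genes, with a median of 0.52.

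In the lists of markers of other cells of the head, the share called ran from 0% to 18.2%, beside 11.1% of all genes. The 9 glia markers were all below 0 in the averaged comparison, with a median of -0.24, and 1 (alrm) was called lower; 3 of them also serve transmitter removal or recycling and stand in a list described further on. Of 11 photoreceptor markers 9 were above 0, with a median of 0.27, and Arr2 (0.57) and chp (1.04) were called higher. Of 7 fat body markers 6 were below 0, with a median of -0.77, and none was called. One of 8 muscle markers was called higher (bt, 0.80), and 0 of 4 hemocyte markers were called. All markers in these lists had at least 3 counts in every library. Without both replicate 2 libraries, 7 of 11 photoreceptor markers were called higher, beside 16.5% of all genes, and 5 of 7 fat body markers lower, beside 12.5%. In that fit 2 of 9 glia markers were called lower, 1 of 8 muscle markers higher, and 1 of 4 hemocyte markers in each direction. The part of tissue makeup in the members' values was not tested.

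**Figure D5:**
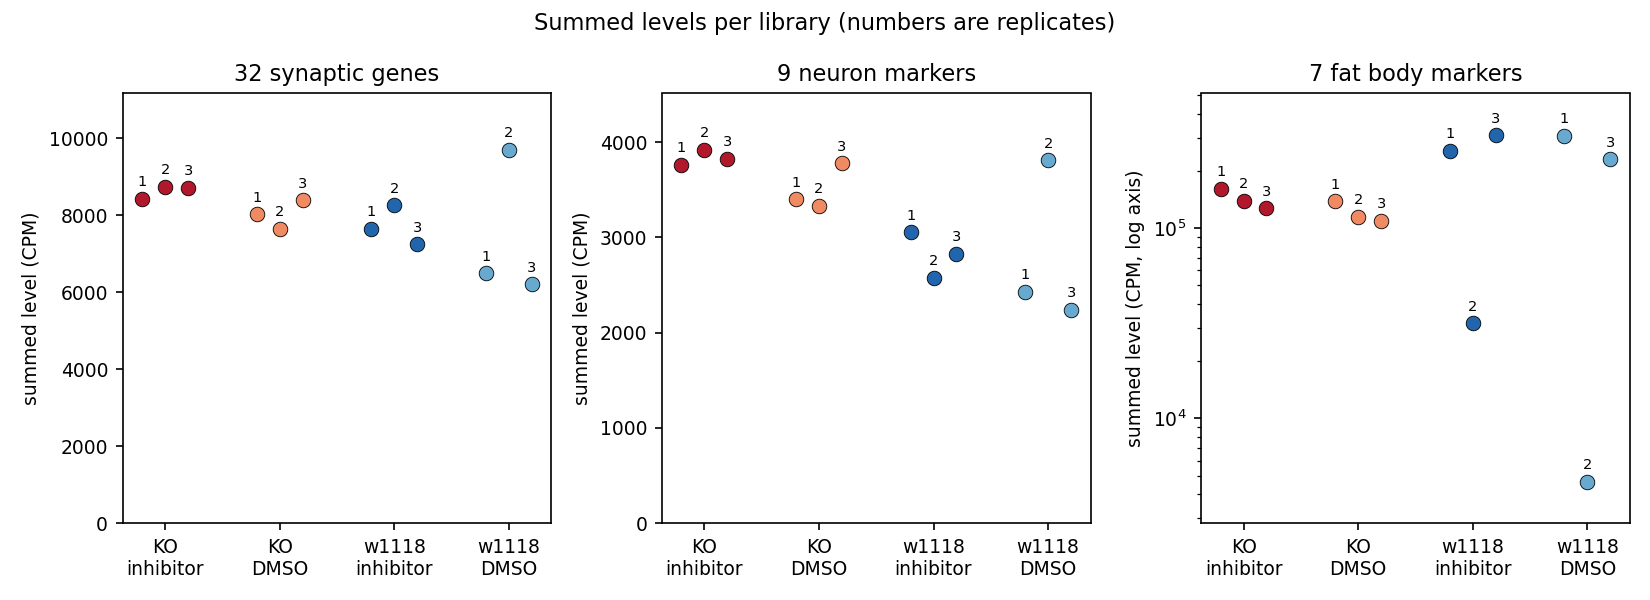
Summed level in CPM of the 32 synaptic genes, 9 neuron markers (both linear axes) and 7 fat body markers (log axis) in each library, with replicate numbers above the points. Replicate 2 of w1118 with DMSO has the highest sum of the synaptic genes (9711 CPM) and the lowest of the fat body markers (4648 CPM).

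No member passed the test for an effect of the inhibitor. In flies labelled KO, 0 of 32 members were called with inhibitor against DMSO, beside 0.00706% of all genes, and 0 had an unadjusted p under 0.05, beside 3.70% of all genes. DESeq2 also called 0, beside 0.512%. There, 28 of 32 members were above 0, with a median log2 fold change of 0.08 beside -0.01 for all genes. The 9 neuron markers were also all above 0, with a median of 0.14 and none called. With neuron marker scaling the members' median was -0.09, with 7 of 32 above 0, and that of all genes was -0.18. Without both replicate 2 libraries of w1118 it was 0.08, with 28 of 32 above 0 and 0 called, beside 0.0699% of genes. In 10 members all 3 inhibitor libraries lay above all 3 DMSO libraries, beside 6.66% of all genes. These were Syn, Rab3, Sap47, Snap25, Syx1A, unc-13, Csp, Syt7, Liprin-alpha and lap. In 2, Rop and stnB, they lay below, beside 6.36% of all genes. Over all 32 members the log2 fold changes ran from -0.28, for Rop, to 0.26. Syn was at 0.12 (95% interval -0.21 to 0.45). For nSyb the libraries overlapped, and it was at 0.05 (95% interval -0.36 to 0.46).

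In w1118 flies, 0 members were called with inhibitor against DMSO, beside 0.00% of all genes. One, Rim, had an unadjusted p under 0.05 (log2 fold change 0.59, SE 0.227, edgeR adjusted p = 0.628), beside 7.39% of all genes, and DESeq2 called 0, beside 0.345%. The median was -0.07, with 12 of 32 above 0. No member separated the 3 inhibitor libraries from the 3 DMSO libraries, beside 3.13% of all genes higher and 4.78% lower. The w1118 median was 0.17 without both replicate 2 libraries, with 30 of 32 above 0, and again 0 were called, beside 0.0629% of genes. That fit rests on 2 w1118 libraries per treatment. The DMSO library left out had 31 of 32 members above their mean, so leaving it out raises this median by construction. The same limit holds for the comparisons below that use this fit.

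Averaged over genotypes, the inhibitor gave 0 calls beside 0.00706% of all genes, and the members' median was 0.01, with 17 of 32 above 0. At an unadjusted p under 0.05 there were 2 members (Rop and Rim), or 6.25%, beside 5.31% of all genes, and DESeq2 called 0, beside 0.329%. The median was 0.12 without both replicate 2 libraries, with 29 of 32 above 0 and 0 called, beside 0.140% of genes.

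The test of whether the genotype effect differed between treatments gave 0 calls, beside 0.00% of all genes, and 0 members at an unadjusted p under 0.05, beside 4.84% of all genes. DESeq2 called 0, beside 0.509%. The median of this difference (the effect with inhibitor minus the effect with DMSO) was 0.14, with 22 of 32 members above 0. It was -0.11, with 6 of 32 above 0, without both replicate 2 libraries, and 0 were called, beside 0.00699% of genes. The direction of the difference thus turned with those 2 libraries. With all 12 libraries it was 0.26 for Syn (95% interval -0.20 to 0.73) and 0.26 for nSyb (95% interval -0.32 to 0.84), and both intervals span 0.

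In 4 lists of other presynaptic genes, 6 of 56 were called in the averaged genotype comparison, 4 higher and 2 lower in libraries labelled KO, which is 10.7%, close to the 11.1% of all genes called. The genes that passed are named as single results. Of 18 other fusion and priming genes, Rab3-GEF, the exchange factor that loads Rab3 with GTP, rose (379.9 ± 36.2 CPM in libraries labelled KO and 235.0 ± 37.3 CPM in w1118, SD, n = 6 each, log2 fold change 0.69). So did Rph, the Rab3 effector rabphilin (31.9 ± 2.00 CPM in libraries labelled KO and 20.2 ± 4.47 CPM in w1118, SD, n = 6 each, log2 fold change 0.66). Nsf2, the other NSF gene of the fly, fell by 0.29. Of 14 other active zone and scaffold genes X11L, a Mint-family adaptor, rose (0.32). Of 14 other endocytosis genes Eps-15, a scaffold of clathrin pits, rose (0.40) and AP-2mu, a subunit of the clathrin adaptor AP-2, fell by 0.49. Of 10 genes of transmitter supply and removal none passed. The adjusted p values of these 6, by edgeR, ran over 0.0013 to 0.028. Their groups did not overlap for Rab3-GEF, X11L and Eps-15, which were higher in all 6 libraries labelled KO, and for AP-2mu, which was lower, beside 3.79% of all genes higher and 3.97% lower. Without both replicate 2 libraries 28 of the 56 were called, 24 higher beside 16.5% of all genes, and 4 lower beside 12.5%.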

How the data were processed

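Per the labels' protocols, RNA from single heads was depleted of ribosomal RNA and sequenced. The authors deposited 1 table of estimated counts per feature, not scaled to depth (24633705 to 44545859 counts per library). Per the submitters' processing notes, Trim Galore 0.6.7, STAR 2.7.9a, Salmon 1.10.1 and the build BDGP6 were used; annotation and strand setting are not given in the sources used here. Groups came from the labels. Symbols came from FlyBase and RefSeq tables and positions from Ensembl's BDGP6 annotation.

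Estimated counts were rounded, FlyBase gene rows filtered (edgeR filterByExpr, minimum count 10, 14155 genes left), scaled by TMM, and fitted in 1 model of 4 groups with edgeR 4.0.16 (R 4.3.3). Quasi-likelihood tests were adjusted by Benjamini-Hochberg over all genes tested, and a gene is called at an adjusted p under 0.05. CPM values use TMM-scaled library sizes. The TMM factors ran from 1.01 to 1.09 in libraries labelled KO and from 0.786 to 1.37 in w1118. Before scaling, the members made up 1.33% of gene counts in replicate 2 of w1118 with DMSO. They made up 0.511% in replicate 1 of that group. On simulated data with 200 of 14155 genes changed by 1 on the log2 scale, the averaged genotype test recovered 91 of the 200 in 94 calls, and made 0 calls with no change simulated.

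Members, role groups, marker and other gene lists were chosen with earlier results of these data known. Values in every library are given for members called in any comparison and, up to 8, for those with the smallest p of the averaged genotype effect. Snap25 and Syt4 were added after their values were seen. Alternatives were DESeq2 1.42.0, limma 3.58.1 (voom with sample weights), other scalings and filters, a replicate block, fits of only 2 groups, and leaving out libraries. Sequences of the members are not shown here. Reads carry no molecular identifiers, so counts are not independent molecules. Each library is 1 head, so p-values measure the spread between heads.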

Additional observations from a re-analysis of the deposited data

Results flagged for a closer look

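Each of the 32 genes was checked for a library far from the other 5 of its genotype, in libraries labelled KO and in w1118 libraries, which makes 64 checks. In 18 of them 1 library lay beyond Dixon's 95% limit, where chance gives about 1 in 20, or 3.2 of 64. No weighing of causes was made.

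In w1118, replicate 2 with DMSO was the distant library, on the high side, for 11 genes. Its levels were 690.2 CPM for nSyb, 180.9 CPM for Rop, 154.6 CPM for Csp, 194.1 CPM for comt and 184.3 CPM for Fife. They were 291.4 CPM for Syn, 461.9 CPM for shi and 388.0 CPM for stnA. For the transmitter genes they were 555.0 CPM for VGlut, 67.6 CPM for ChAT and 54.0 CPM for VGAT. The same library had 4648 CPM of fat body markers in sum and 3811 CPM of neuron markers, beside 2430 and 2241 CPM of neuron markers in the other 2 w1118 DMSO libraries.

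Replicate 2 of w1118 with inhibitor was the distant library for 3 genes, with 636.7 CPM for Syt4 (114.1 to 181.9 CPM in the other 5), 678.9 CPM for Snap25 (112.0 to 202.1 CPM in the other 5) and 281.9 CPM for Rim (111.9 to 174.6 CPM in the other 5).

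Among libraries labelled KO, replicate 3 with inhibitor stood high for Syt1, at 594.4 CPM (416.5 to 481.5 CPM in the other 5), and for Syd-1, at 327.2 CPM (215.1 to 255.8 CPM in the other 5). Replicate 3 with DMSO stood high for Syt4, at 180.5 CPM, and replicate 1 with DMSO stood low for Gad1, at 107.7 CPM.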

How the results depend on the processing

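The averaged genotype effect called 2 of 32 members with all 12 libraries, beside 1572 of 14155 genes. It called 3 by DESeq2, beside 2192 of 13907 genes, and 3 by median-of-ratios scaling, beside 1517 of 14155. The stricter count filter gave 3, beside 1573 of 11172, and no count filter gave 1, beside 1341 of 17372. Voom with sample weights called 16, beside 3975 of 14155, and the fit without both w1118 replicates numbered 2 called 25, beside 4161 of 14303. Neuron marker scaling called 11, all lower, beside 4515 of 14155 genes called lower. Leaving out 1 library at a time gave 0 to 18 calls: 18 without replicate 2 of w1118 with DMSO, 3 without replicate 2 of w1118 with inhibitor, and 0 without replicate 2 or 3 of KO with inhibitor or replicate 3 of KO with DMSO. It gave 2 without replicate 1 of w1118 with inhibitor and 1, Syn, without each of the other 6. The genotype effect with DMSO called 0 members, but 12 by voom, 20 without both replicates numbered 2, 5 with neuron marker scaling and 0 to 9 leaving out 1 library (9 without replicate 2 of w1118 with DMSO). With inhibitor it called 0, but 2 by DESeq2, 2 in a fit of only those 2 groups and 1 by the stricter filter. It called 3 by voom, 9 without both replicates numbered 2 and 1 with neuron marker scaling. Leaving out 1 library gave 0 to 6 calls with inhibitor (6 without replicate 2 of w1118 with DMSO). That library is not among the inhibitor-fed libraries compared and enters only through the shared filter, scaling and fit. The 4 tests that involve the inhibitor's own effect called 0 members under each alternative run. The cause of these changes was not tested. No member had under 1014 counts in a library, and each group has 3 libraries.

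Over all genes, median-of-ratios scaling called 892 higher and 625 lower, beside 754 and 818 with TMM. Neuron marker scaling called 302 higher and 4515 lower. DESeq2 called 2192 genes, voom 3975 and the fit without both replicates numbered 2 called 4161, beside 1572. Leaving out 1 library gave 936 to 3246 genes. With DMSO, voom called 2406 genes, the fit without both replicates numbered 2 called 2614 and neuron marker scaling 912, beside 581. With inhibitor these fits called 1335, 1824 and 551 genes, beside 482, and DESeq2 called 1081. Leaving out replicate 2 of w1118 with DMSO gave 1629 genes with DMSO and 1351 with inhibitor.

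Some single members changed the sign of their averaged log2 fold change. Neuron marker scaling moved the median of all genes to -0.44, beside -0.07 with TMM. The members' median was 0.22 above that of all genes, beside 0.19 with TMM, a distance that a shift of all genes leaves nearly unchanged. The members whose sign changed under neuron marker scaling followed that shift of all genes. These members were EndoA (-0.331), Liprin-alpha (-0.159), Rbp (-0.109), Rim (-0.14), Rop (-0.217), Sap47 (-0.0894), Syd-1 (-0.043), Synj (-0.0814), Syt1 (-0.123), Syx1A (-0.0774), VGAT (-0.32), VGlut (-0.229), brp (-0.072), cac (-0.0422), cpx (-0.0205), lap (-0.218), shi (-0.333) and unc-13 (-0.119). Without both replicates numbered 2 they were Csp (0.134), Fife (0.104), Rab3 (0.301), Snap25 (0.192), Syt4 (0.503), Syt7 (0.106), comt (0.0871), stnA (0.0205) and stnB (0.243). By voom they were Csp (0.0473), Fife (0.0056), Rab3 (0.155), Syt4 (0.255), Syt7 (0.0259), comt (0.0186) and stnB (0.132). By the stricter filter they were Csp (0.0461), Syt7 (0.00869) and stnB (0.0421). DESeq2 gave Csp 0.0356 and stnB 0.0333, and median-of-ratios scaling gave Csp 0.0358 and stnB 0.0333. Leaving out 1 library gave -0.00699 to 0.138 for Csp, -0.149 to 0.084 for Fife, -0.102 to 0.168 for Rab3, -0.816 to 0.03 for Snap25, -0.422 to 0.377 for Syt4, -0.0574 to 0.156 for Syt7, -0.223 to 0.0122 for VAChT, -0.0846 to 0.107 for comt, -0.00132 to 0.193 for shi, -0.12 to 0.0493 for stnA and -0.0272 to 0.201 for stnB.

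Groups share replicate numbers in the labels, but no label says that a number marks shared flies or days. Over 18 pairs of same-numbered libraries the correlations of deviations from the group means ran from -0.153 to 0.173 with a mean of 0.016. They exceeded 0.1 in 3 pairs, of which the w1118 libraries numbered 2 are one, at 0.150, so the numbers were not taken to pair the samples. With the number as a replicate block, the averaged genotype effect called 1 member (Syn) and 1237 genes, and stnB stood at 0.0076. nSyb lost its call (0.487, edgeR adjusted p = 0.0659), and no other member's call changed with the replicate block.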
